A study of Mus musculus with 3 samples.

Results

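A group of 10 cytokine genes whose products keep lymphoid and myeloid cells alive were followed across 3 stromal cell populations of the mouse mesenteric lymph node. They are Il7, Il15, Il33, Tslp, Csf1, Csf3, Kitl, Flt3l, Tnfsf11 and Tnfsf13b. They were taken by gene name from the scanner files and make up 10 of 28076 genes, with 17 of 41156 probes. Each population was measured on 1 single-colour Agilent array, so no difference has a replicate check and none was tested. All folds describe these 3 arrays.

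The populations were lymphatic endothelial cells (LEC, gp38+ CD31+), blood endothelial cells (BEC, gp38- CD31+) and fibroblastic reticular cells (FRC, gp38+ CD31-). All came from wild-type mice of strain C57BL/6NCrl, with no other treatment or diet named in the sample labels. Nodes were digested with collagenase, depleted of CD45-bearing leukocytes on magnetic columns and gated as CD45- CD24- before the split on gp38 and CD31. Mean purity of the sorted subsets was 88 ± 1.5% per the labels, which do not say what the error is or how many mice gave each RNA. In sorted bulk RNA, fewer cells of a type and less RNA per cell cannot be told apart.

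A level here is log2 of the background-subtracted signal minus the 75th percentile of the same array, which was 268 intensity units for LEC, 361 for BEC and 387 for FRC. Between 59.7% and 60.5% of probes were marked well above background, no spot was saturated, and the 3 arrays shared 1 slide and 1 scan. The summed linear level of 10 FRC markers was 161 in LEC, 44.8 in BEC and 2641 in FRC, that of 10 LEC markers 520, 60 and 3.08 in the same order of arrays, and that of 10 BEC markers 382, 1515 and 49.9. Each label thus had the highest sum of its own markers. Most markers were also well above background outside their own label. For LEC these were all 10 FRC markers and all 10 BEC markers. For BEC they were 9 FRC and 10 LEC markers, and for FRC 7 LEC and 10 BEC markers. Whether cells of another label gave these signals was not tested.

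Stromal cells of a lymph node supply the factors on which resident and passing leukocytes depend. IL-7 and BAFF, the product of Tnfsf13b, sustain lymphocytes, and the Flt3 ligand sustains dendritic cells. M-CSF (Csf1) keeps macrophages alive, G-CSF (Csf3) acts on neutrophils, and the Kit ligand acts on mast cells and blood progenitors. RANKL (Tnfsf11) is made by marginal reticular cells and drives lymph node formation. Several of these proteins are first made as membrane-bound forms and then cleaved.

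Printed here are 4 member probes, since for Il15 and Kitl they differ from the other probe of the gene. Their letters match the known protein sequences, so they are called coding probes, but no annotation of the array's build was used to place them in exons. They are given 5′ to 3′ in the sense of the gene, in lower case throughout, with the mm9 positions of the array design. The Il7 probe covers 60 bases of RNA but 1104 bases of genome, so it spans an intron.
Il7 probe, chr3:7576123-7577226, minus strand: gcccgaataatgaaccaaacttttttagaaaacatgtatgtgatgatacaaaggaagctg
Il15 probe, chr8:84858403-84858462, minus strand: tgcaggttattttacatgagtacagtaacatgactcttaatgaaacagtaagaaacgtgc
Kitl probe, chr10:99539380-99539439, plus strand: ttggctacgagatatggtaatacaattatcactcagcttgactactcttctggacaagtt
Flt3l probe, chr7:52389282-52389341, minus strand: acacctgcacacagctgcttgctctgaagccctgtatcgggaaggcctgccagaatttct

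RefSeq promoter windows (GRCm38.p6, 250 bases before to 50 after the start) were matched for 6 of the 10 members: Il33, Csf1, Kitl, Flt3l, Tnfsf11 and Tnfsf13b, with 8 windows in all. Both strands were searched for 2 NF-kB-type words, a tighter one spelled GGGNN followed by TTTCC and a looser one spelled GGGNNN followed by TTCC that contains it. They were also searched for an interferon-response-type word, GAAANN followed by GAAA, and for the AP-1-type word TGANTCA. The 4 windows with a match before the start are shown because the genes differ in where they were high: Csf1 in LEC, Kitl in BEC, Flt3l and Tnfsf13b in FRC. Capitals mark the matches, and the 250 bases before the start are given 5′ to 3′ on the strand of the gene.
Csf1, chr3:107760470-107760719, minus strand: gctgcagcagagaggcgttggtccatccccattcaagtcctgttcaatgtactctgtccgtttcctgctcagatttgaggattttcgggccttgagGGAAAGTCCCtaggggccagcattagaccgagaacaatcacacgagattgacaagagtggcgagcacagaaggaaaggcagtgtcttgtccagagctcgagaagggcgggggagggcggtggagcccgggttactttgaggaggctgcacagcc
Kitl, chr10:100015571-100015820, plus strand: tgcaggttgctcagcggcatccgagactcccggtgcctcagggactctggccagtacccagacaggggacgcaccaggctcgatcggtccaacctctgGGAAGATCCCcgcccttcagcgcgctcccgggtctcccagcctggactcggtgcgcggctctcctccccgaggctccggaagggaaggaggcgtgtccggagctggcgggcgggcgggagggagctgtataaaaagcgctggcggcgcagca
Flt3l, chr7:45136433-45136682, minus strand: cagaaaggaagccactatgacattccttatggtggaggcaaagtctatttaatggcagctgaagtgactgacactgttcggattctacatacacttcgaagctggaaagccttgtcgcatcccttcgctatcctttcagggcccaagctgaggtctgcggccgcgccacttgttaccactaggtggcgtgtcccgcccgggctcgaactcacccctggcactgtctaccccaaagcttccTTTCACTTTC
Tnfsf13b, chr8:10006383-10006632, plus strand: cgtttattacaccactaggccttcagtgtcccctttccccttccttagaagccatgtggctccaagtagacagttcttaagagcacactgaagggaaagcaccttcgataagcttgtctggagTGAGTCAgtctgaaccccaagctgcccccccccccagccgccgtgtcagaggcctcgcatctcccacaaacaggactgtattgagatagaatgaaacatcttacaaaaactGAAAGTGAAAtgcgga

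The Csf1 window held both NF-kB-type words at position -154 relative to the start and the Kitl window the looser one at -152. Flt3l held the interferon-type word at -10. The second of the overlapping Tnfsf13b windows held that word at -16 and the AP-1-type word at -127, and the first window held the same AP-1-type site after its own start. The Tnfsf11 window and both Il33 windows had none of these letters. Of 32851 mouse promoter windows of the same length, 1.63% held the tighter NF-kB-type word, 5.56% the looser one, 3.44% the interferon-type word and 7.81% the AP-1-type word. These are matches of letters and not measured sites.

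Of the 10 members, 10 were well above background on the LEC array, 9 on the BEC array (all but Tnfsf11) and 9 on the FRC array (all but Csf3). Of all 28076 genes, 61.3% were so on the LEC array, 62.1% on the BEC array and 62.1% on the FRC array. By probe, the numbers were 15, 12 and 15 of 17 in the same order. The brightest probe stood for a gene, and a gene was counted as different at 4-fold or more. Where the dimmer array was not well above background, the fold was computed against the higher of the probe's own signal and that array's lowest signal well above background. It is a bound, written as at least N-fold.

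**Figure D1:**
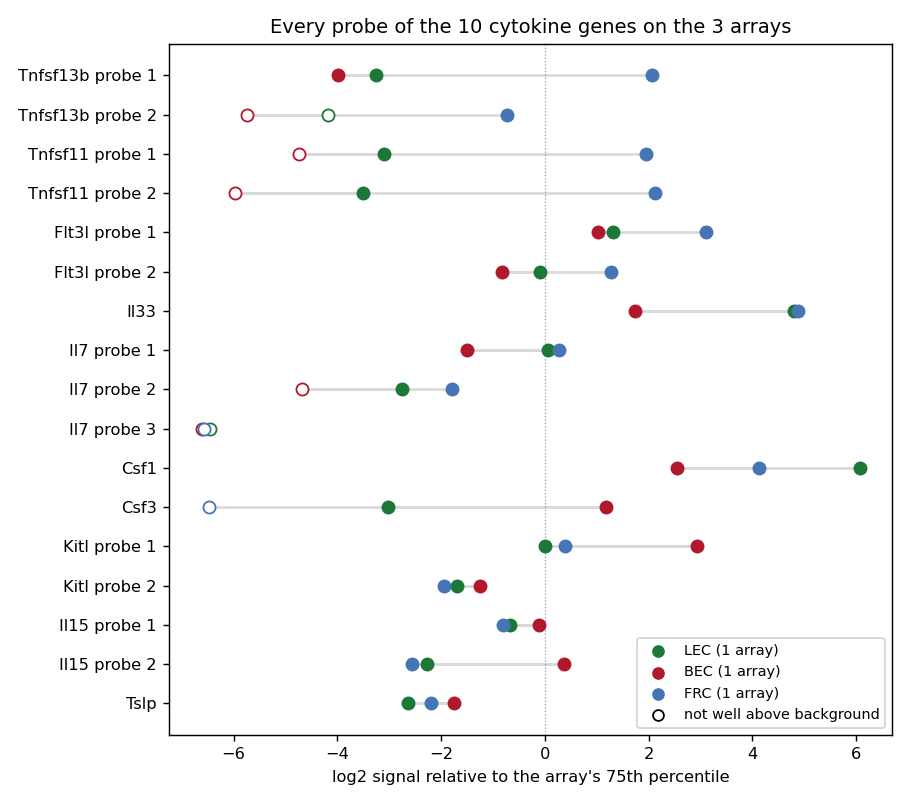
Level of each of the 17 probes of the 10 cytokine genes on the LEC, BEC and FRC arrays (log2 signal relative to the 75th percentile of the array, 1 array each), with open circles where the probe was not well above background and probe 1 the brightest of a gene. Tnfsf13b and Tnfsf11 sit far to the right on the FRC array (2.06 and 1.96), Csf1 is highest on the LEC array (6.07), and Csf3 and Kitl are highest on the BEC array (1.18 and 2.93).

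LEC against FRC separated few of the members. None was at least 4-fold higher in LEC, where 4.89% of 18440 genes were. Those at least 4-fold lower numbered 2, Tnfsf11 and Tnfsf13b, where 5.93% of all genes were lower. The median difference of the members was -0.30 log2, against 0.02 over all genes.

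BEC stood further from FRC. Csf3 and Kitl, 2 of 10 members, were at least 4-fold higher in BEC, against 6.59% of 18830 genes. Il33, Flt3l, Tnfsf11 and Tnfsf13b, 4 of 10, were at least 4-fold lower, against 7.57% of all genes. The median difference of the members was -1.68 log2, against 0.09 over all genes. Both comparisons use the same FRC array, so their values are not independent.

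Between the endothelial populations, Il33 and Csf1 had LEC levels 4-fold or more above those of BEC, 2 of 10 members against 3.39% of 18322 genes. Csf3 and Kitl, also 2 of 10, were at least 4-fold lower in LEC, against 3.38% of genes. The median difference was 0.51 log2 for the members and -0.07 for all genes. Il15 and Tslp did not reach 4-fold in any comparison by their brightest probe, nor did Il7.

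**Figure D2:**
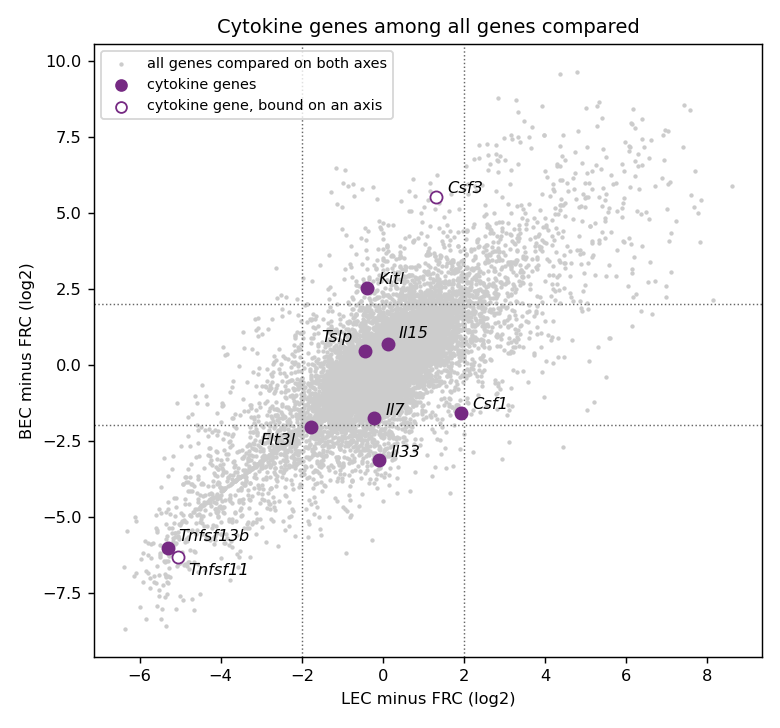
Differences between arrays for all genes compared on both axes (grey) and the 10 cytokine genes (purple, open where a value is a bound), with LEC minus FRC on the x axis and BEC minus FRC on the y axis, both in log2, and dotted lines at 4-fold. The FRC array enters both axes, so the 2 axes are not independent. Tnfsf13b (-5.31 and -6.05) and Tnfsf11 lie at the lower left, Csf3 at the top, and Il33 (-0.09 and -3.15) and Csf1 (1.93 and -1.59) below the diagonal.

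Tnfsf13b encodes BAFF, the survival factor of mature B cells. Its brighter probe (chr8:10035561-10035620, mm9, plus strand) had a level of -3.25 in LEC, -3.99 in BEC and 2.06 in FRC. The FRC value stood alone, and both endothelial values lay close to the lowest signal that counted as well above background (-4.20 in LEC and -4.38 in BEC). In intensity units, with the error given by the scanner software, the signal was 28.2 ± 4.38 in LEC, 22.7 ± 4.73 in BEC and 1611 ± 161 in FRC. Tnfsf13b was thus 39.5-fold lower in LEC and 66.1-fold lower in BEC than in FRC. The second probe was well above background in FRC alone, at -0.72, and was at least 11-fold lower in LEC and at least 12.6-fold lower in BEC. Between LEC and BEC the brighter probe differed by 0.74 log2, at signals only a few times their error.

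Tnfsf11, the gene of RANKL, had a range of at least 6.33 log2 over the 3 arrays. Its level was -3.10 in LEC, -4.75 in BEC, where it was not well above background, and 1.96 in FRC (chr14:78678180-78678239, mm9, minus strand). It was 33.4-fold lower in LEC and at least 80.7-fold lower in BEC than in FRC. The second probe gave levels of -3.50 in LEC, -5.98 in BEC and 2.12 in FRC, and was 49.3-fold lower in LEC and at least 90.6-fold lower in BEC. Both probes ordered the arrays alike. Of all 19158 genes with a range over the arrays, 99% had a smaller one than Tnfsf11 and 98.8% a smaller one than Tnfsf13b. These ranges use the bound where a gene was not well above background, as for Tnfsf11 in BEC.

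Flt3l, the ligand on which dendritic cells depend, was also highest in FRC but was far from absent in endothelium. Its brighter probe had a level of 1.32 in LEC, 1.03 in BEC and 3.1 in FRC (chr7:52386603-52386662, mm9, minus strand). LEC was 3.44-fold and BEC 4.19-fold below FRC, on either side of the 4-fold line. The coding probe printed above gave -0.09 in LEC, -0.83 in BEC and 1.27 in FRC, which is 2.57-fold lower in LEC and 4.30-fold lower in BEC. LEC and BEC differed by 0.29 log2 on the brighter probe and by 0.74 on the coding one.

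Markers of other reticular cell types were mixed. The summed level of 6 follicular dendritic and marginal reticular cell markers was 130 in LEC, 242 in BEC and 660 in FRC, with all 6 well above background on each array. Mfge8 carried most of the FRC sum, at 6.75 in LEC, 7.73 in BEC and 9.28 in FRC. Madcam1, a marker of marginal reticular cells and of some venules, was lowest in FRC, at 3.32 in LEC, 4.43 in BEC and 2.39 in FRC. Fcgr2b was highest in LEC, and Fcer2a and Bst1 were highest in FRC within 4-fold of the other arrays. Cr2, the complement receptor of follicular dendritic and B cells, had 0.18 in LEC, -1.77 in BEC and 4.09 in FRC. Its other probe put LEC minus FRC at -1.16 and BEC minus FRC at -1.54 log2, both under 4-fold. The 7 mural cell markers summed to 59.2 in LEC, 48.8 in BEC and 78.2 in FRC. Acta2 was the brightest of them, at 5.67 in LEC, 5.17 in BEC and 5.48 in FRC. Des, Notch3 and Kcnj8 were at least 4-fold lower in LEC than in FRC, 3 of 7 against 5.93% of all genes. Rgs5, Des and Kcnj8 were so in BEC, 3 of 7 against 7.57%, and none of the 7 was higher in either. The other Rgs5 probe put BEC 0.87 log2 above FRC. The part of these markers in the levels of Tnfsf13b, Tnfsf11 and Flt3l was not tested.

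IL-33 is a nuclear cytokine released on damage and acts on group 2 innate lymphoid cells and regulatory T cells. Its single probe (chr19:30034990-30035049, mm9, plus strand) had a level of 4.80 in LEC, 1.74 in BEC and 4.89 in FRC. LEC and FRC lay within 0.09 log2 of each other, and BEC was 8.90-fold below FRC. LEC was 8.38-fold above BEC. The intensities were 7486 in LEC, 1204 in BEC and 11486 in FRC, all far above background.

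Il7, the survival factor of naive T cells and innate lymphoid cells, had the same order of arrays. Its brightest probe (chr3:7573207-7573266, mm9, minus strand) had a level of 0.06 in LEC, -1.50 in BEC and 0.27 in FRC. BEC was 3.4-fold below FRC, and LEC was 2.94-fold above BEC and 1.16-fold below FRC. None of these reached 4-fold. The intron-spanning coding probe had -2.76 in LEC, -4.68 in BEC, where it was not well above background, and -1.79 in FRC. By that probe BEC was at least 6.02-fold below FRC and LEC 1.96-fold below it. The third probe of Il7 was not well above background on any array. The 7 mesothelial and epithelial markers summed to 5.83 in LEC, 3.16 in BEC and 10.4 in FRC. Msln, Upk3b, Krt8 and Krt18 were at least 4-fold lower in BEC than in FRC, 4 of 7 against 7.57% of all genes. The other 3 did not reach 4-fold there. The part of these markers in the levels of Il33 and Il7 was not tested.

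Il15, which sustains natural killer and memory CD8 T cells, depended on the probe. The brightest probe (chr8:84867236-84867295, mm9, minus strand) had -0.67 in LEC, -0.11 in BEC and -0.80 in FRC, a spread of less than 2-fold. The coding probe printed above had -2.28 in LEC, 0.37 in BEC and -2.56 in FRC. By the coding probe BEC was 7.66-fold above FRC, and LEC was 6.30-fold below BEC. Both probes put BEC highest and LEC within 0.28 log2 of FRC. All 6 values were well above background, and the 2 probes disagreed in the size of the BEC difference and not in its sign.

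Tslp, an epithelial-type cytokine that acts on dendritic cells and type 2 lymphocytes, was faint. Its level was -2.64 in LEC, -1.76 in BEC and -2.19 in FRC, with an intensity of 43.0 in LEC. The widest gap, LEC below BEC, was 1.84-fold. Of all genes, 52.0% had a smaller range over the arrays than Tslp and 40.5% a smaller one than Il15 by its brightest probe, where the median range was 0.84 log2.

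Csf1, the growth and survival factor of macrophages, was highest in LEC. Its probe (chr3:107544333-107544392, mm9, minus strand) is spotted 10 times on the array, of which 9, 9 and 7 spots were kept in LEC, BEC and FRC. The level was 6.07 in LEC (spot SD 0.028), 2.55 in BEC (0.016) and 4.14 in FRC (0.021). LEC spots ran between 6.03 and 6.12, BEC spots between 2.53 and 2.58, and FRC spots between 4.11 and 4.17. The 245 probes spotted 10 times had, where well above background, a median spot SD of 0.054 in LEC, 0.058 in BEC and 0.054 in FRC. LEC was 11.5-fold above BEC and 3.81-fold above FRC, and BEC was 3.01-fold below FRC. Spots repeat 1 hybridised sample and carry no variation between mice.

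Kitl, the gene of the Kit ligand, was highest in BEC. The brighter probe (chr10:99562481-99562540, mm9, plus strand), also spotted 10 times, had a level of 0.01 in LEC (spot SD 0.038), 2.93 in BEC (0.036) and 0.40 in FRC (0.043). Its spots lay between -0.05 and 0.07 in LEC, between 2.87 and 2.97 in BEC and between 0.32 and 0.45 in FRC. BEC was 5.79-fold above FRC, and LEC was 7.55-fold below BEC and 1.30-fold below FRC. The coding probe printed above gave -1.69 in LEC, -1.25 in BEC and -1.95 in FRC, with BEC only 1.62-fold above FRC. Both Kitl probes placed BEC highest, but the order of LEC and FRC turned between them.

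**Figure D3:**
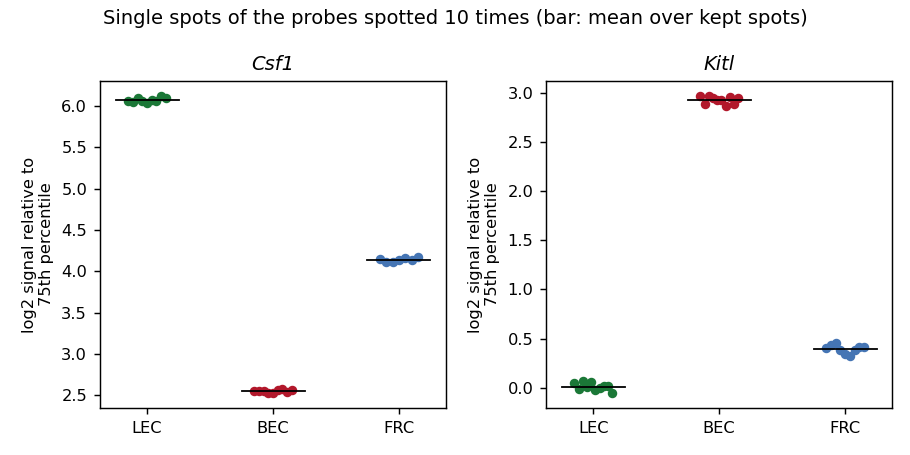
Single kept spots of the Csf1 and Kitl probes that are spotted 10 times on the LEC, BEC and FRC arrays (log2 signal relative to the 75th percentile of the array), with a bar at the mean. The spots of 1 array lie within a narrow band for both genes. The bands show technical spread within an array only.

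Csf3, which drives neutrophil production and release, was a BEC signal on these arrays. Its single probe (chr11:98564614-98564673, mm9, plus strand) had a level of -3.03 in LEC, 1.18 in BEC and -6.47 in FRC, where it was not well above background. The intensities were 32.9 ± 4.64 in LEC, 819 ± 82.0 in BEC and 4.36 ± 4.35 in FRC, so the FRC signal was no larger than its error. BEC was at least 45.9-fold above FRC, and LEC was at least 2.48-fold above FRC and 18.5-fold below BEC. A larger range over the arrays than that of Csf3 was found in few genes, since 98.2% had a smaller one. This range, 5.52 log2, is a bound like that of Tnfsf11, so the 2 genes cannot be ranked by it.

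Markers of leukocytes, which the sort was meant to remove, moved in part with the BEC-high members. The 13 lymphocyte markers summed to 6.94 in LEC, 14.2 in BEC and 3.21 in FRC, with 12, 12 and 11 of them well above background. Ptprc, the gene of CD45, had a level of -1.57 in LEC, 0.23 in BEC and -2.36 in FRC by its brightest probe. Its other probes were not well above background on any array. Cd79b was the brightest lymphocyte marker in BEC, at 1.23 in LEC, 2.79 in BEC and -0.81 in FRC. The list did not move as one. Of 12 markers compared between BEC and FRC, 5 passed 4-fold, all with BEC above, against 6.59% of 18830 genes. The other 7 did not pass it. Cd3e was lowest in BEC, at -0.73 in LEC, -1.12 in BEC and -0.55 in FRC. Lck was highest in LEC, at 0.79 in LEC, 0.44 in BEC and -2.28 in FRC. The 15 myeloid markers summed to 19.6, 13.8 and 14.8 in the same order, with 12, 12 and 9 well above background and with Itgam, Mcpt4 and Siglech not well above background on any array. The 5 adipocyte markers summed to 4.62 in LEC, 20.1 in BEC and 2.90 in FRC. Cfd made up most of the BEC sum, at 1.73 in LEC, 3.98 in BEC and -1.02 in FRC. Retn was also highest in BEC, at -0.70 in LEC, 1.31 in BEC and -2.08 in FRC. Plin1 was 12.5-fold lower in BEC than in FRC, and Lep was not well above background on any array. Of 4 compared between BEC and FRC, 2 were higher and 1 lower in BEC, against 6.59% and 7.57% of all genes. The part of these markers in the levels of Csf3 and Kitl was not tested.

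The receptors of the 10 cytokines were accounted for in full. Of 16 listed genes, 14 were compared between arrays, and Csf3r and Tnfrsf17 were not well above background on any. In LEC against FRC, Il2rg, Kit and Tnfrsf11a were at least 4-fold higher and Tnfrsf11b lower. That was 3 and 1 of 14, against 4.89% and 5.93% of all genes. In BEC against FRC, Il7r, Il2rg, Il2rb, Kit, Tnfrsf11a and Tnfrsf13c were higher and Tnfrsf11b lower. That was 6 and 1 of 14, against 6.59% and 7.57% of all genes. In LEC against BEC, none was higher, and Il7r and Kit were lower, 2 of 14 against 3.38% of all genes. The median difference of the compared receptors was 0.65 log2 in LEC against FRC, 1.00 in BEC against FRC and -0.17 in LEC against BEC. Over all genes it was 0.02, 0.09 and -0.07 for the same pairs.

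For the RANKL pair of receptors the arrays split. Tnfrsf11a, the gene of the signalling receptor RANK, had a level of 2.58 in LEC, 0.69 in BEC and -4.42 in FRC, where this probe was not well above background. LEC was at least 6.92 log2 and BEC at least 5.03 log2 above FRC. The other probe, well above background on all 3 arrays, put LEC 3.53 and BEC 1.30 log2 above FRC. LEC minus BEC was 2.23 by that probe and 1.89 by the brighter one. Tnfrsf11b, the gene of the decoy receptor osteoprotegerin, had -2.23 in LEC, -1.44 in BEC and 2.33 in FRC. LEC minus FRC was thus -4.56 log2 and BEC minus FRC -3.76, in the same direction as for Tnfsf11 itself.

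Kit, the receptor of the Kit ligand, had a level of 0.38 in LEC, 2.74 in BEC and -3.62 in FRC. The difference from FRC was 4.0 log2 in LEC and 6.36 in BEC, and LEC minus BEC was -2.36. Ligand and receptor were both highest on the BEC array. Il2rg, the common gamma chain used by IL-7 and IL-15, had 2.42 in LEC, 1.85 in BEC and -2.81 in FRC.

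Il7r, the chain of the IL-7 receptor that also serves TSLP, was not well above background in LEC and had -1.24 in BEC and -3.59 in FRC. BEC was 2.35 log2 above FRC by this probe, and its other 2 probes were not well above background on any array. Il2rb, a chain shared by the IL-2 and IL-15 receptors, had -3.04 in LEC and -1.88 in BEC and was not well above background in FRC, with BEC at least 2.44 log2 higher. Il15ra, which presents IL-15 to neighbouring cells, had -0.49 in LEC, -0.34 in BEC and -1.22 in FRC.

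Among the remaining receptors, Crlf2, the specific chain of the TSLP receptor, was well above background throughout, at 4.52 in LEC, 4.77 in BEC and 3.83 in FRC. Il1rl1, the IL-33 receptor, stayed between -4.0 and -3.85 on the 3 arrays by its brightest probe. This was close to the lowest level well above background (-4.20 in LEC, -4.38 in BEC and -4.34 in FRC). Its other probes were not well above background on any array. The BAFF receptor gene Tnfrsf13c had -2.38 in LEC, -0.47 in BEC and -2.94 in FRC. By their brightest probes Il1rap, Csf1r and Flt3 differed by less than 4-fold in each comparison. Tnfrsf13b was not well above background in FRC and had bounds of 0.87 log2 for LEC and 1.07 for BEC above it, so a larger difference was not measurable. Lymphocytes carry many of these receptors, and the lymphocyte marker sums given above were also highest in BEC. Their part in the receptor levels was not tested.

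**Figure D4:**
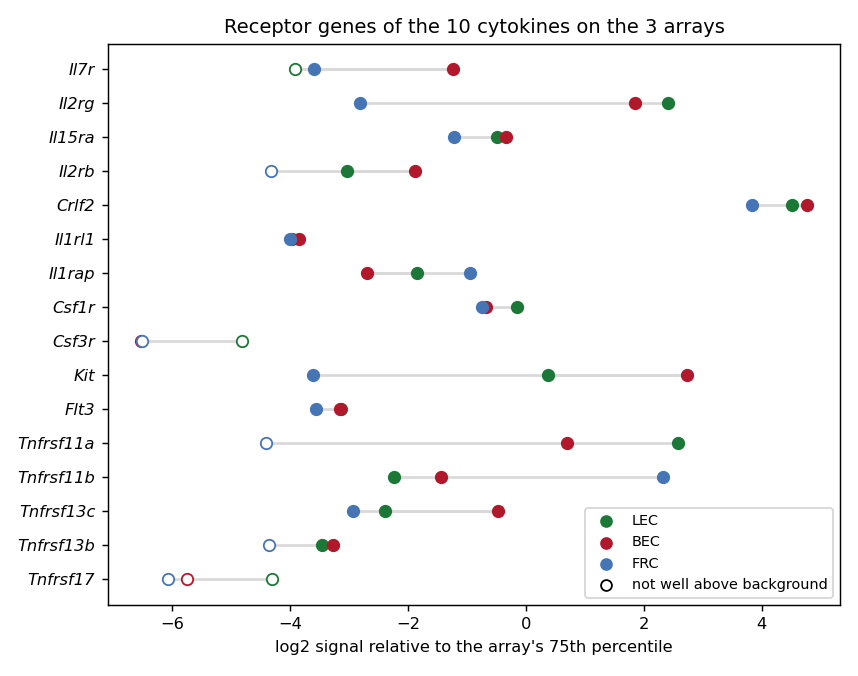
Level of the brightest probe of each of the 16 receptor genes on the LEC, BEC and FRC arrays (log2 signal relative to the 75th percentile of the array, 1 array each), with open circles where it was not well above background. Kit, Il2rg and Tnfrsf11a lie far to the left on the FRC array (-3.62, -2.81 and -4.42), and Tnfrsf11b lies to the right on it (2.33).

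Other growth and survival ligands of leukocytes were counted in the same way. Of 22 listed, 20 were found on the array by name, 11 were compared and 9 were not well above background on any array. Il18, Il34 and Cxcl12 were at least 4-fold lower in LEC than in FRC (-2.13, -2.64 and -3.83 log2), and none was higher. That was 3 of 11 lower, against 5.93% of 18440 genes. The median difference of the compared ligands was -0.02 log2 in LEC against FRC, 0.22 in BEC against FRC and -0.01 in LEC against BEC. Over all genes it was 0.02, 0.09 and -0.07 for the same pairs. Il34 encodes the second ligand of the M-CSF receptor and had -1.54 in LEC, -0.13 in BEC and 1.10 in FRC, with FRC highest where Csf1 was highest in LEC. Il18 was the only listed ligand past 4-fold in BEC against FRC, with BEC minus FRC at -3.1 log2. That was 1 of 11 lower, against 7.57% of 18830 genes. Csf2, the gene of GM-CSF, had -2.49 in LEC and -2.48 in BEC and was not well above background in FRC. Il6 and Cxcl12 were lower in LEC than in BEC (-3.19 and -4.20 log2), 2 of 11 against 3.38% of 18322 genes. The second Cxcl12 probe gave 0.08 for LEC minus BEC and -5.56 for BEC minus FRC, where the brighter probe gave 0.36, so its BEC level depended on the probe.

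Of 7 enzymes that cut membrane-bound cytokines free, 6 to 7 were well above background on each array. Mmp9, which cleaves the Kit ligand, had 2.78 in LEC and -1.67 in FRC and was not well above background in BEC. LEC was thus higher by 4.45 log2 than FRC and by at least 7.15 log2 than BEC, and BEC minus FRC was at a bound of -2.71 log2. Mmp14, which cuts RANKL, had 5.11 in LEC, 2.45 in BEC and 5.63 in FRC. BEC minus FRC was -3.18 log2 and LEC minus BEC was 2.67. Adam10 was 2.18 log2 higher in LEC than in FRC. Adam17, the main sheddase of M-CSF, had 1.38 in LEC, -0.15 in BEC and 1.56 in FRC and did not reach 4-fold in any comparison. The median over the 7 enzymes was 0.53 log2 in LEC against FRC, -0.89 in BEC against FRC and 1.42 in LEC against BEC.

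Signalling genes around these cytokines were counted at 4-fold by their brightest probes. Of 12 genes of the lymphotoxin receptor and the alternative NF-kB pathway, Ltb was the only one past 4-fold, at 6.56 in LEC, 4.21 in BEC and 2.19 in FRC. Ltb encodes lymphotoxin beta, the ligand through which lymphocytes mature reticular cells. Its receptor gene Ltbr was even, at 2.71 in LEC, 3.55 in BEC and 3.16 in FRC. Of 11 JAK-STAT genes, Jak3, the kinase that binds the common gamma chain, was the only one past 4-fold, at 3.19 in LEC, 3.01 in BEC and -1.71 in FRC, the same order of arrays as Il2rg. In LEC against FRC, 1 of 11 compared genes of the lymphotoxin list was higher, against 4.89% of all genes. In BEC against FRC it was 1 of 12, against 6.59%, and in LEC against BEC 1 of 12, against 3.39%. For the JAK-STAT list it was 1 of 11, 1 of 11 and 0 of 11 for the same pairs. None was lower in either list. The median of the lymphotoxin list was 0.91 log2 in LEC against FRC, 0.52 in BEC against FRC and 0.66 in LEC against BEC. That of the JAK-STAT list was 0.43, 0.35 and 0.21 for the same pairs, and that of all genes was 0.02, 0.09 and -0.07.

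The genes whose 3 values, centred on their own mean, lay nearest to those of the members past 4-fold are given as a description over 3 arrays. Cd248, the gene of endosialin, lay nearest to Tnfsf13b (distance 0.06 log2), followed by Pla2g4a (0.07). Myl7 and Nid1 lay nearest to Flt3l (both 0.03) and Dapk3 (0.06) and Reg1 (0.09) to Il33. Klk1b4 (0.16) and Klk1 (0.19) were nearest to Csf1, and Lpar6 (0.03) and Srrm4 (0.09) to Kitl. The candidates were 12653 genes well above background on all 3 arrays. No neighbours are given for Csf3 and Tnfsf11, since 1 of their 3 values was not well above background.

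The differences held their direction in most other settings of the processing. Tnfsf13b minus its FRC level stayed between -5.74 and -3.69 log2 in LEC and between -6.85 and -4.09 in BEC. The second Tnfsf13b probe, not well above background in LEC or BEC, stayed below its FRC level in both. With normexp it fell under 4-fold, at -1.51 log2 in LEC and -1.96 in BEC. Csf3 in BEC stayed at least 4-fold above FRC, as a bound, wherever a bound was taken. Csf1 stayed between 3.27 and 3.75 for LEC minus BEC. Csf1 ran between 1.01 and 2.05 for LEC minus FRC and so crossed the 4-fold line. Kitl ran between 1.62 and 2.70 for BEC minus FRC and fell under the line where its 2 probes were combined. For Il33 and Tslp the sign of LEC minus FRC turned among settings, at sizes from -1.17 to 0.02 and from -0.49 to 0.04 log2.

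**Figure D5:**
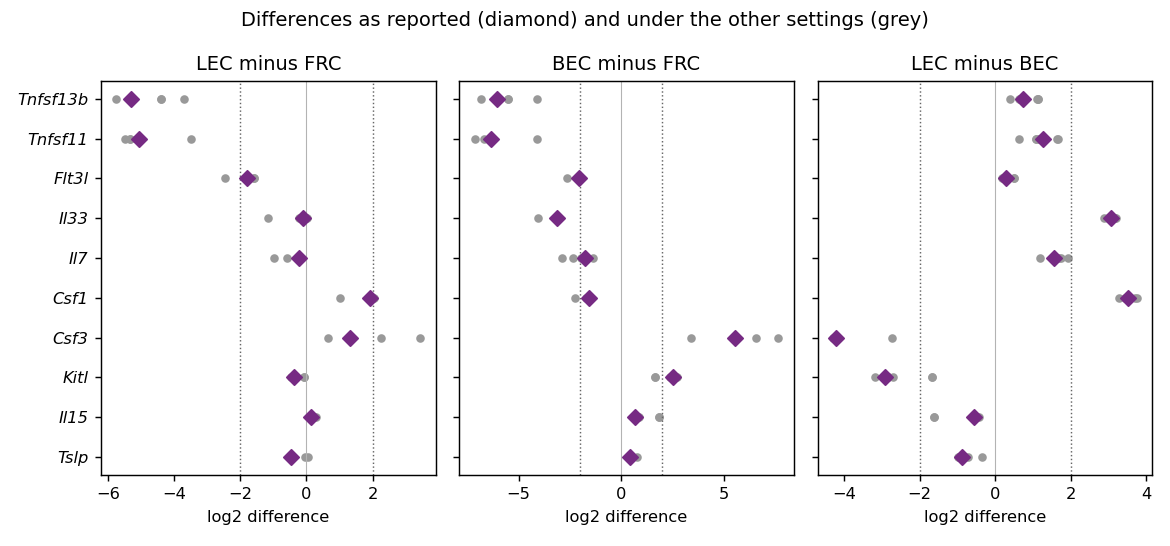
Difference of each cytokine gene in log2 as reported (diamond) and under each other setting that gave a value (grey points, including bounds for comparisons with Csf3 in FRC and Tnfsf11 in BEC), in 3 panels for the 3 pairs of arrays, with dotted lines at 4-fold. Tnfsf13b and Tnfsf11 stay beyond 4-fold below FRC in LEC and in BEC under every setting drawn. Il33 stays beyond it in BEC against FRC and in LEC against BEC. Further probes of a gene are not drawn by themselves. Csf1, Flt3l, Kitl, Il7 and Csf3 each cross a dotted line in at least 1 panel.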

How the data were processed

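Total RNA of 3 sorted populations was amplified in 1 round and labelled with 1 fluorescent dye, per the labels' protocols. The deposited scanner files hold spot intensity from Agilent Feature Extraction 10.7.3.1, already background-subtracted per the file headers. The authors' series matrix was deposited as linear intensity with a floor of 15 and a median of 40.2 on each of the 3 arrays, and its sorted columns differed by at most 0.943 units. Above the floor it correlated with the scanner values at 0.99998 on each array. The sources used here do not state its normalisation.

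Outlier and control spots were left out (18 probes lost all spots), spots of a probe were averaged, and log2 of the signal minus the 75th percentile was taken per array. Gene symbols were updated through RefSeq for 26681 matched probes. The brightest probe stood for a gene and a call was 4-fold. Bounds were used for genes with no probe well above background on the dimmer array. Python 3.11.15, pandas 2.3.3, R 4.3.3 and limma 3.58.1 were used, and the comparison step was tested on simulated data. With 1 array per population the number of arrays limits the precision. The members, gene lists and rules were chosen with earlier results of these data known. Named were all members, listed genes past 4-fold, every receptor, and the 2 nearest profiles of members past 4-fold, left out where the member was not well above background on all arrays. Other genes named from the lists serve to account for a list.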

Additional observations from a re-analysis of the deposited data

How the results depend on the processing

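With 1 array per population, leaving out an array ends a comparison. No paired analysis was possible because each population has a single array. No member or list result changed sign past 4-fold. Other results moved as follows. Members higher in LEC than in FRC numbered 0 as reported, 1 after quantile normalization and in the authors' series matrix (Csf1), 1 with no filter on dim probes and with spike-in slopes (Csf3, which was not well above background in FRC), and 2 at a 2-fold threshold. Members higher in BEC than in FRC numbered 2 as reported and 1 with the mean or the median of a gene's probes, with both arrays required well above background, and at 8-fold. Members lower in LEC than in BEC numbered 2 as reported and 1 with the mean or median of probes and at 8-fold. Members higher in LEC than in BEC numbered 2 as reported and 4 at 2-fold.

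Of the 5 lists of related genes, 7 genes were higher in LEC than in FRC (17 at 2-fold) and 4 lower (2 at 8-fold). Those higher in BEC than in FRC numbered 8 (4 with normexp, 14 at 2-fold, 4 at 8-fold) and those lower 4 (11 at 2-fold). Those higher in LEC than in BEC numbered 3 (5 with the mean of probes, 13 at 2-fold, 1 at 8-fold) and those lower 4 (9 at 2-fold, 2 at 8-fold). With normexp and an offset of 50, Flt3l for BEC minus FRC was -1.99 log2. With spike-in slopes, an alternative chosen after seeing the data, it was -2.46 for LEC minus FRC, and Csf1 was -2.27 for BEC minus FRC. The slopes were 1.00 for LEC, 0.919 for BEC and 0.821 for FRC. Combining the Il7 probes put BEC at least 4-fold below FRC, but it uses a probe that was not well above background in BEC, so no size is given. Ltb for BEC minus FRC was 1.90 to 1.99 in 5 settings. The cause of these shifts was not tested.

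Over all genes, the counts higher and lower were 902 and 1094 for LEC minus FRC, 1240 and 1426 for BEC minus FRC, and 622 and 620 for LEC minus BEC. With normexp they were 554 and 639, 747 and 861, and 289 and 325 in the same order. At 2-fold they were 2397 and 2459, 3157 and 3104, and 2009 and 1863, and at 8-fold 449 and 583, 631 and 748, and 201 and 251. Spike-in slopes gave 1376 higher for LEC minus FRC, and no filter gave 1019 higher for LEC minus BEC.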
